A study of Mus musculus with 12 samples.

Results

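The genes described here encode the proteins of the cytosolic ribosome, the particle that translates messenger RNA in the cytoplasm. They were chosen by name, as entries called Rpl or Rps with a number and at most 2 of the letters a, l and x, plus Rpsa, Rplp0, Rplp1 and Rplp2, with at least 10 counts in 3 or more of the 12 libraries. Of 54429 entries in the count table, 84 carried such a name and 82 met the count minimum, namely 50 genes of the large subunit (Rpl and Rplp) and 32 of the small subunit (Rps). Rpl10l and Rpl39l stayed below the minimum. The annotation calls 79 of the 82 protein-coding and 3 (Rps4l, Rpl32l and Rpl6l) pseudogenes. Pseudogenes with -ps names are no members, and the name rule also leaves out Rps3a1, Fau, Rack1 and other ribosomal genes, which are given further on as a list of their own.

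The libraries were made from total RNA of brain punches of C57BL/6 mice after depletion of ribosomal RNA, and they form 4 groups of 3. BLA libraries came from males and VTA libraries from females per the series' design text, and in each region mice labelled as isolated early in life stood against group-housed mice. Region and sex change together, so they cannot be told apart in any comparison of BLA with VTA. The labels call the tissue cerebrum and give neither the age nor the length of isolation, and nothing in them ties the 3 libraries of a group to different animals, so the p-values rest on a spread that could be technical.

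Each ribosome holds a small subunit, which decodes the message, and a large subunit, which joins the amino acids, and each contains nearly every protein of its set in a single copy. Vertebrate ribosomal protein messages share a run of pyrimidines at their start (the TOP motif), through which the mTOR kinase controls their translation as a group. In neurons they are abundant in cell bodies and are also found in processes. Ribosomal protein genes have left many processed pseudogenes in the mouse genome, near-identical copies without introns that can take up reads of the parent gene.

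Total counts per library ran from 28278708 to 69276892, of which the members took between 0.498% and 1.27%. Reads of ribosomal RNA itself, counted at 3 loci, made up 18.6%, 28.6% and 41.8% of the counts of isolated BLA library 3 and group-housed BLA libraries 1 and 2 and at most 1.57% elsewhere, and with those loci taken out the members' share was 0.854% to 1.27%. As a check of the regions, the lowest level of the dopamine transporter Slc6a3 in VTA was 230.7 CPM and the highest in BLA was 1.09 CPM. CPM are counts relative to library size, scaled with TMM factors over the 12 libraries. Isolated VTA libraries 1 and 3 stood apart through markers of other tissue: 12 choroid plexus markers summed to 278 and 3512 CPM there, 47.7 CPM in isolated library 2 and 41.0 to 61.5 CPM in the group-housed VTA libraries. For the members named in VTA and for the gene lists, the fold change is therefore also given without these libraries, which leaves isolated library 2 against the 3 group-housed ones. All 8 cortical glutamatergic markers were still higher in that library (median log2 fold change 0.53), so the comparison is not free of other tissue. Of the 12 choroid plexus markers 3 were higher there and 9 lower (median -0.22).

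Rps2 was the member with the smallest p in both regions. Its protein, uS5, lies at the site where messenger RNA enters the small subunit. The gene is on chromosome 17 (mm10, chr17:24718116-24721929, plus strand). In BLA the isolated libraries 1, 2 and 3 held 140, 96.1 and 116 CPM of it, and the group-housed libraries 77.0, 67.1 and 57.0 CPM. In VTA the isolated libraries held 94.7, 73.1 and 123 CPM and the group-housed libraries 55.8, 51.5 and 47.7 CPM. In each region every isolated library was above every group-housed library. The log2 fold change, isolated over group-housed, was 0.82 (SE 0.15) in BLA and 0.85 (SE 0.17) in VTA. Neither passed the quasi-likelihood test of edgeR after adjustment over all genes by Benjamini and Hochberg (unadjusted p = 0.000233 and 0.00125, adjusted p = 1.00 and 0.236), whereas DESeq2 gave adjusted p = 0.00303 and 0.00125. Without isolated VTA library 2 the VTA value was 1.01 with an edgeR adjusted p of 0.0225, and without the 2 marker-rich libraries it was 0.48 (adjusted p = 0.986). The responses of the regions differed by -0.10 (SE 0.26, edgeR adjusted p = 0.884), and that sign turned under upper-quartile factors (0.06) and when single libraries were left out.

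Rps18 stood far from the other members in BLA and among them in VTA. Its protein, uS13, sits at the head of the small subunit. The gene lies further along the same chromosome (chr17:33951999-33956001, minus strand), within the histocompatibility region. In BLA the isolated libraries held 77.9, 68.2 and 84.5 CPM and the group-housed libraries 39.3, 24.6 and 49.6 CPM, without overlap. In VTA the isolated libraries held 125, 82.2 and 139 CPM and the group-housed libraries 83.3, 107 and 99.9 CPM, with isolated library 2 below every group-housed one. The log2 fold change was 1.01 (SE 0.23) in BLA (edgeR adjusted p = 1.00) and 0.19 (adjusted p = 0.579) in VTA. DESeq2 called the BLA value (adjusted p = 0.00303). Without the 3 BLA libraries of high ribosomal RNA share, among them the 2 lowest group-housed ones, the BLA value was 0.56. Without the 2 marker-rich isolated libraries the VTA value was -0.26, the opposite direction. The responses differed by 0.76 (SE 0.35), which did not pass the test (edgeR adjusted p = 0.343), and that difference was 0.37 without the libraries of high ribosomal RNA share and 1.24 without the marker-rich ones.

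**Figure D1:**
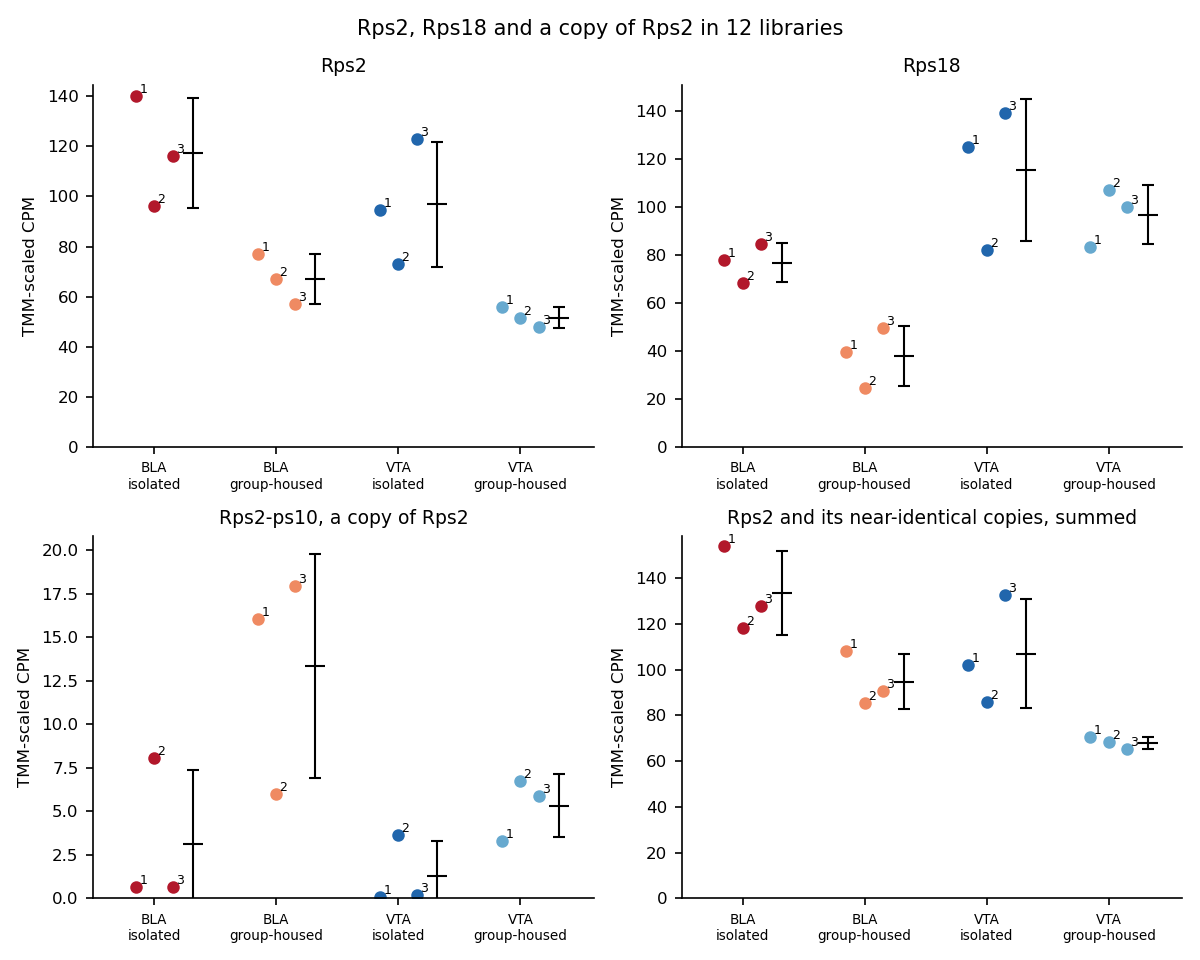
Levels of Rps2, Rps18, the copy Rps2-ps10 and Rps2 summed with its near-identical copies, in TMM-scaled CPM, 1 point per library with its replicate number, and the mean ± SD of each group of 3 beside it (bars cut off at 0). The isolated libraries of Rps2 lie above the group-housed ones in both regions, those of Rps18 do so in BLA, and Rps2-ps10 is lowest in isolated libraries 1 and 3 of each region.

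Counts of Rps2 and Rps18 can be split with near-identical copies. At 90% identity or more over at least 70% of the coding sequence, Rps2 had 43 copies in the GENCODE M21 transcripts (40 with counts) and Rps18 had 11 (9 with counts). The stretches below show how little separates a gene from a copy. They are coding sequence from those transcripts, with the bases that differ in capitals, at coding positions 25 to 84 for Rps2 and 122 to 181 for Rps18, counted from 1 at the A of the start codon. Rps2-ps13 lies at chrX:52898588-52899469 and Rps18-ps3 at chr8:107262793-107263248.
Rps2: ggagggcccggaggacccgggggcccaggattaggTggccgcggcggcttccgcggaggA
Rps2-ps13: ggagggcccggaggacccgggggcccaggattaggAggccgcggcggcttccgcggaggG
Rps18: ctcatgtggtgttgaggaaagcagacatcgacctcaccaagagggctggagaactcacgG
Rps18-ps3: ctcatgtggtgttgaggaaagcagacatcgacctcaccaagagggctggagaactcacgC
Within these stretches the substitutions are T60A and A84G for Rps2-ps13 and G181C for Rps18-ps3. Over the aligned coding sequence Rps2-ps13 differed from Rps2 by 7 substitutions in 882 bases and by 1 gap, whose bases are not among the 882. With gap bases counted, the blastn identity was 97.8%. Rps18-ps3 differed from Rps18 by 3 substitutions in 456 bases.

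The summed copies of Rps2 had a lower mean in isolated than in group-housed libraries of both regions, and in BLA the groups overlapped. Rps2-ps10, a transcribed processed pseudogene on chromosome 18 with 98.0% identity, lay at 0.62, 8.04 and 0.67 CPM in isolated BLA libraries and 16.1, 5.99 and 17.9 CPM in group-housed ones. In VTA it lay at 0.07, 3.62 and 0.17 CPM in isolated libraries and 3.28, 6.76 and 5.88 CPM in group-housed ones. Isolated libraries 1 and 3 were thus the lowest of their region, and isolated library 2, the lowest isolated library for Rps2 in both regions, lay within the range of the group-housed ones. Summed over all its copies, the level was 14.0, 22.3 and 11.8 CPM in isolated and 31.3, 18.3 and 33.7 CPM in group-housed BLA. In VTA the sums were 7.63, 12.6 and 9.96 CPM against 14.8, 16.9 and 17.6 CPM, without overlap. The means were 16.0 ± 5.54 CPM in isolated and 27.8 ± 8.27 CPM in group-housed BLA, and 10.1 ± 2.48 and 16.4 ± 1.46 CPM in VTA (SD, n = 3 per group).

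Adding the copies to Rps2 left the isolated libraries above the group-housed ones. The sum was 154, 118 and 128 CPM against 108, 85.4 and 90.7 CPM in BLA. In VTA it was 102, 85.7 and 133 CPM against 70.6, 68.4 and 65.3 CPM. The log2 fold change fell to 0.50 in BLA and 0.59 in VTA, and neither passed the edgeR test. How the submitters' counting treated reads that match both a gene and a copy is not stated, and the value of Rps2 by itself is uncertain. For Rps18 the copies held 1.63% of the summed counts and the values hardly moved, at 79.6, 69.98 and 86.6 CPM against 41.0, 25.3 and 50.6 CPM in BLA.

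As a share of all member counts, which needs no scaling between libraries, Rps2 made up 1.23% ± 0.228 in isolated and 0.728% ± 0.0868 in group-housed BLA, and 0.851% ± 0.159 and 0.544% ± 0.0383 in VTA. Rps18 made up 0.804% ± 0.09999 and 0.410% ± 0.130 in BLA, and 1.01% ± 0.189 and 1.02% ± 0.122 in VTA (SD, n = 3 per group). In BLA both shares separated the groups, and in VTA that held for Rps2 alone. With the near-identical copies added, the shares of Rps2 were 1.31% and 0.966% in BLA and 0.886% and 0.673% in VTA.

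The genes next to them on chromosome 17 did not all go with them. Among the 5 nearest genes on each side of Rps2, the isolated BLA libraries lay above the group-housed ones for Tbl3 and Rpl3l. Tbl3 had a log2 fold change of 0.28 (edgeR adjusted p = 1.00), and Rpl3l is too low to be tested there. Of all genes 4.15% had isolated BLA libraries above the group-housed ones. In VTA that held for Tbl3 (0.23), Snhg9 (0.97), Snora78 (0.91), Ndufb10 (0.30), Gfer (0.20) and Syngr3 (0.16), beside 17.4% of all genes, and 0 of them passed the test. Snhg9 and Snora78 lie within the span of Rps2. Of the Rps2 exon bases 7.32% are shared with Snora64 on the same strand and 0.765% with Snhg9 on the opposite strand. Around Rps18 in BLA no neighbour had isolated libraries all above the group-housed ones. Its nearest, Vps52, which overlaps 6.36% of the Rps18 exon bases on the opposite strand, lay below them (-0.17), beside 2.96% of all genes. Rgl2 (0.53), H2-K2 (0.71) and H2-K1 (0.43) overlapped.

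The genes most like Rps2 over the 12 libraries, after the mean of each region was taken off the log2 CPM, were Rrm2 (r = 0.94), Gm9866 (0.93), Dnajc7 (0.93), 1810030O07Rik (0.93) and Kidins220 (0.92), out of 16657 genes with a mean of at least 1 CPM. Of these, Rrm2, Gm9866 and Kidins220 lie on chromosome 12. The most opposed included 9530082P21Rik (-0.95), on chromosome 17 like Rps2, and Rps2-ps10 (-0.89). The genes most like Rps18 included Gm9962 (0.93), Tmem243 (0.90), the histocompatibility gene H2-T22 (0.90) on the same chromosome, and Grcc10 (0.89). No other member was among the 5 for either gene. These are extremes picked from all genes, and they share the libraries and their scaling.

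In BLA the other members lay in a narrow band around the background of all genes. By edgeR, 0 of 81 members tested passed (0% of all 22110 genes). An unadjusted p below 0.05 was found for 3, Rps2, Rps18 and Rpl39, all higher, beside 1.39% of all genes higher and 1.99% in either direction. DESeq2 called 2 (Rps2 and Rps18, beside 0.0271% of all genes) and limma voom 0 (0%). The median log2 fold change over the members was 0.07, beside 0.00 over all genes tested, with 57 above 0 and 24 below, where 50.8% of all genes were above. For the 49 large subunit members the median was 0.07 and for the 32 small subunit members 0.08. In bulk tissue, more RNA of a gene per cell and more cells that express it cannot be told apart. In BLA all 8 cortical and basolateral glutamatergic markers were lower in isolated libraries (median -0.27) and all 7 striatal markers were higher (median 0.43). The striatal markers summed to 2309, 1204 and 813 CPM in isolated and 1494, 1189 and 587 CPM in group-housed libraries, with overlap. The part of such tissue in the BLA values was not tested.

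Rpl39, a very short protein that lines the exit tunnel of the large subunit, lay at 50.9, 54.4 and 51.5 CPM in isolated and 47.4, 34.3 and 45.4 CPM in group-housed BLA. The isolated libraries were all above, with a log2 fold change of 0.30 (SE 0.12, edgeR adjusted p = 1.00), and of 0.17 without group-housed library 2. Isolated libraries lay above all group-housed ones in 3 of 81 members, the same Rps2, Rps18 and Rpl39, beside 4.15% of all genes, and below them in 1, Rpl10a, beside 2.96%. Rpl10a lay at 82.1, 84.5 and 82.4 CPM against 89.9, 84.6 and 85.0 CPM, a gap far smaller than that of Rps2.

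The largest values after Rps18 and Rps2 belonged to members at very low levels. Rpl32l, a pseudogene copy of Rpl32, lay at 0.78, 0.54 and 0.94 CPM in isolated and 0.44, 0.67 and 0.35 CPM in group-housed BLA (log2 fold change 0.69, SE 0.42). Rpl24 (0.58, SE 0.37) and Rpl36al (-0.41, SE 0.44) lay near 1 CPM or below as well. Among members above 5 CPM other than Rps2 and Rps18, the range was -0.25 (Rps26) to 0.34 (Rps4l).

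Group-housed BLA library 2, the shallowest and the richest in ribosomal RNA reads, stood apart among the BLA libraries. It was the lowest of the 6 BLA libraries for 47 of 82 members and the highest for 14. Rps14 lay there at 87.1 CPM against 159 to 174 CPM in the other BLA libraries. Rpl35 went the other way, at 59.3 CPM against 32.02 to 37.05 CPM, as did Rps26 at 115 CPM against 70.4 to 87.1 CPM. Without this library the median over the members in BLA was 0.00. With all 3 libraries of high ribosomal RNA share left out, and 1 group-housed library remaining, it was 0.10. The part of ribosomal RNA reads in these values was not tested.

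**Figure D2:**
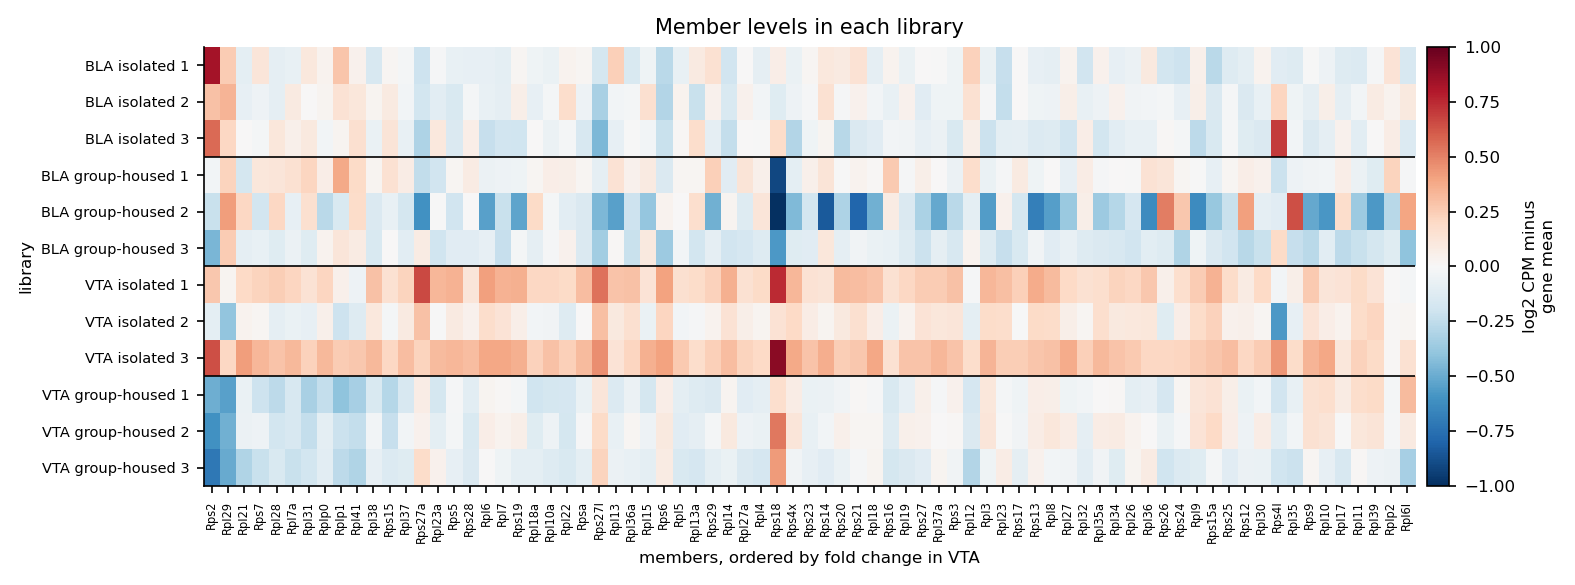
Log2 CPM of each member minus its mean over the 12 libraries, for 75 of the 77 members with a mean of at least 5 CPM, 1 line of squares per library, members ordered by fold change in VTA, and colours that saturate at 1 in either direction. Isolated VTA libraries 1 and 3 are above the mean for nearly every member, group-housed BLA library 2 is mixed, and Rps2 and Rps18 stand out as columns.

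In VTA most members were slightly higher in isolated than in group-housed libraries, and none passed the test by itself. The median log2 fold change was 0.19, beside -0.00 over all 24082 genes tested, with 75 of 82 members above 0 and 7 below, where 49.8% of all genes were above. By edgeR 0 of 82 members passed (0.00415% of all genes). An unadjusted p below 0.05 was reached by 42, all higher, where 8.73% of all genes did so in that direction and 18.3% in either. DESeq2 called 1 (Rps2, beside 2.02% of all genes) and limma voom 0 (0.0083%). The isolated libraries lay above all group-housed ones for 61 members, beside 17.4% of all genes, and below them for 2 (Rpl3l and Rpl32l), beside 11.6%. That count depends on the scaling, being 53 with factors over the 6 VTA libraries (12.6% of all genes) and 36 with upper-quartile factors (7.01%). The count of 42 also moved, to 15 with upper-quartile factors (16% of all genes in either direction). It was 20 without isolated library 1, 23 without isolated library 3, and 14, 23 and 19 without group-housed libraries 1, 2 and 3. It rose to 54 without isolated library 2. The share of all genes at that p, in either direction, moved the same way. From 18.3% this share fell to 9.27% without group-housed library 1 and 15.53% without group-housed library 3, with the other falls in between. Without isolated library 2 the share rose to 29.05%.

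After Rps2 the smallest p values belonged to large and small subunit genes alike. Rpl38, a large subunit protein known for its role in patterning of the axial skeleton, lay at 106, 93.0 and 108 CPM in isolated and 77.6, 84.9 and 81.4 CPM in group-housed libraries (log2 fold change 0.27, SE 0.08, edgeR adjusted p = 0.236). Rps15, a protein of the small subunit head, lay at 210, 187 and 218 CPM against 155, 162 and 172 CPM (0.27, SE 0.08). Rplp0, the base of the large subunit stalk, lay at 188, 167 and 203 CPM against 137, 151 and 150 CPM (0.29, SE 0.08). In these genes the isolated libraries did not overlap the group-housed ones, and isolated library 2 was the nearest to them. Without the 2 marker-rich libraries the values of all 3 genes were 0.17. Copies held 26.7% of the summed counts of Rpl38 and its copies, so its value is less certain than the others.

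Rpl29 had the largest value after Rps2, at 47.0, 35.04 and 53.5 CPM in isolated and 31.5, 32.9 and 32.4 CPM in group-housed VTA (0.43, SE 0.13, adjusted p = 0.236, edgeR). Its isolated libraries 1 and 3 were far above the group-housed ones and library 2 only just, and without libraries 1 and 3 the value was 0.096. It has 54 copies, which held 17.4% of the summed counts. Rpl37 (0.26), Rpl31 (0.29), Rps7 (0.30), Rpl6 (0.24), Rpl7a (0.29) and Rpl28 (0.30) had the same adjusted p of 0.236. Without the marker-rich libraries their values were between 0.084 (Rpl28) and 0.17 (Rpl37). Of the other stalk proteins, which recruit the elongation factors, Rplp1 was at 0.28 (SE 0.11), or 0.062 without the marker-rich libraries, and Rplp2 at -0.02. Rplp2 lay at 70.1, 70.5 and 70.5 CPM in isolated and 69.1, 69.6 and 67.4 CPM in group-housed libraries, so that the groups nearly met. The isolated libraries are above on this scale over 12 libraries, where the fitted value was 0.035, while the value of -0.02 used factors over the 6 VTA libraries, so Rplp2 has no settled direction.

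Rps6 and Rps27a are known for other roles as well. Rps6, the small subunit protein that S6 kinase phosphorylates after neuronal activity, lay at 217, 190 and 217 CPM against 172, 175 and 174 CPM (0.20, edgeR adjusted p = 0.242). Rps27a, whose message encodes ubiquitin fused to a ribosomal protein, lay at 148, 114 and 109 CPM against 98.4, 96.3 and 106 CPM (0.25, adjusted p = 0.281). In both the isolated libraries lay above the others, for Rps27a by a few CPM. Without the marker-rich libraries the values were 0.11 and 0.17.

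**Figure D3:**
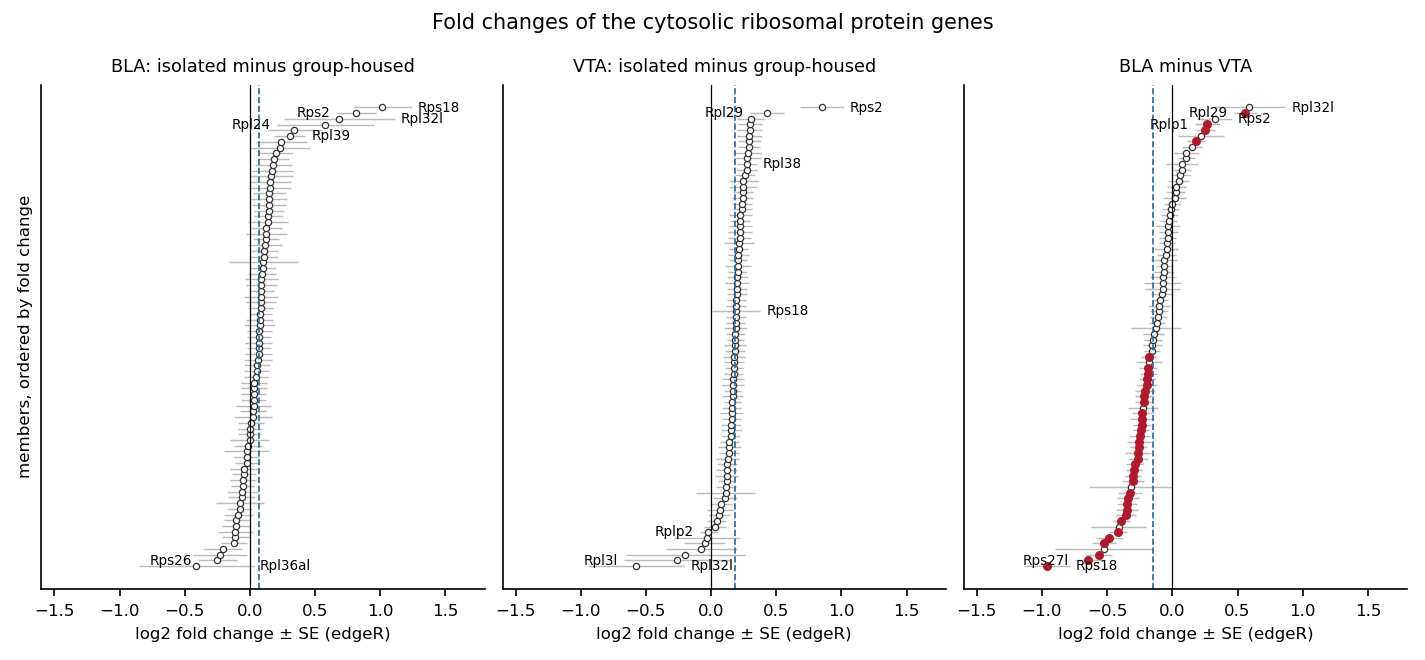
The edgeR log2 fold change ± SE of every member tested, sorted within each panel, for isolated against group-housed in BLA (81 members) and VTA (82) and for BLA against VTA (82); filled red points passed the adjusted p threshold of 0.05 and the dashed line is the median of the members. Rps2 and Rps18 stand away from a narrow band in BLA, nearly the whole band lies above 0 in VTA, and most members that passed in the third panel are lower in BLA.

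The VTA values of the members were highest in the 2 isolated libraries rich in markers of other tissue. The mean over members of log2 CPM minus each gene's mean was 0.22 and 0.27 in isolated libraries 1 and 3, 0.05 in isolated library 2 and -0.08 to -0.01 in the group-housed ones. Library 2 was thus above the group-housed libraries by a small margin, and it was the lowest isolated library for 71 of 82 members. Without libraries 1 and 3, which leaves 1 isolated library whose spread is taken from the other group, the median over members was 0.095, beside -0.02 over all genes, and 1 member higher and 1 lower had p below 0.05, beside 4.44% of all genes in either direction. Without library 2 the median was 0.23 and 7 members passed the edgeR test, where 4.81% of all genes did. The cortical glutamatergic markers, summed, ran alongside at 165, 114 and 489 CPM in isolated and 88.7 to 89.1 CPM in group-housed libraries. The 7 striatal markers, 5 higher and 2 lower (median log2 fold change 1.67), summed to 124, 100.2 and 419 CPM against 100.7 to 122 CPM. The 5 oligodendrocyte markers, all higher (median 0.46, 3 with p below 0.05), summed to 10238, 7612 and 8485 CPM against 5174 to 8545 CPM. The 5 microglia markers, all higher (median 0.29, 0 with p below 0.05), summed to 191, 158 and 248 CPM against 148 to 181 CPM. Of the dopamine neuron markers 3 of 7 were higher (median -0.07), of the astrocyte markers 3 of 5 (0.05) and of the endothelial markers 2 of 3 (0.04). No marker of these lists was at 0 in all libraries. The part of such tissue in the result was not tested.

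**Figure D4:**
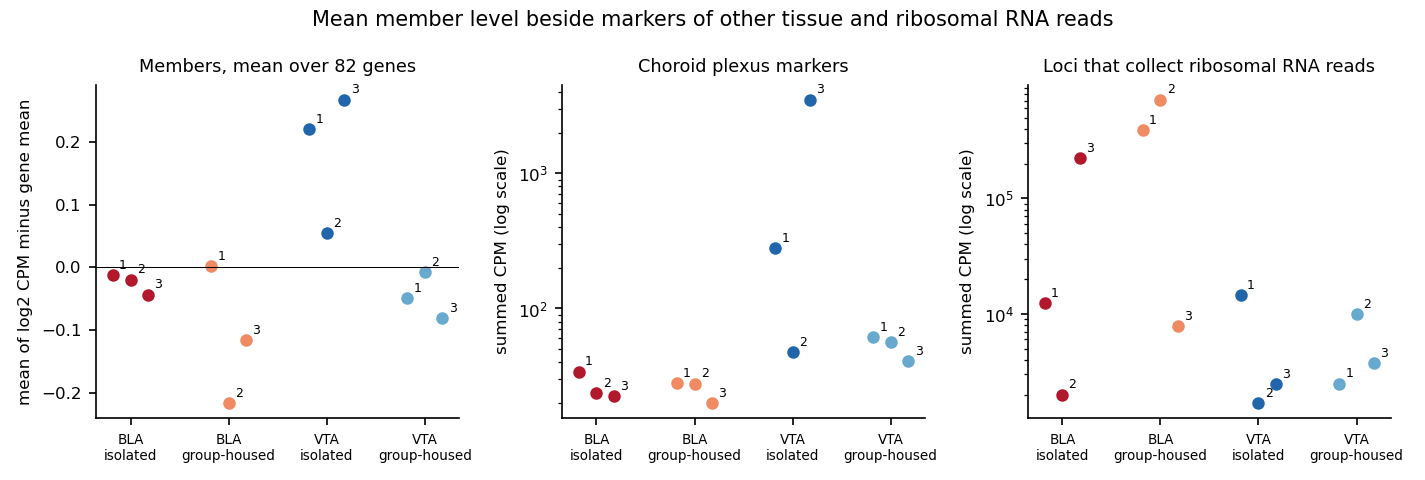
Per library, the mean over 82 members of log2 CPM minus each gene's own mean (left), the summed CPM of 12 choroid plexus markers (middle, log axis) and of 3 loci that collect ribosomal RNA reads (right, log axis); numbers are replicates. Isolated VTA libraries 1 and 3 are the highest in the left and middle panels, and group-housed BLA library 2 is the lowest on the left and the highest on the right.

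Upper-quartile scaling moved all VTA genes down by 0.07 in the median, and the members' median to 0.11. Relative to all genes the members stood 0.19 higher with either scaling. Over the 17 alternatives in VTA this gap ran from 0.11, without the 2 marker-rich libraries, to 0.24, without isolated library 2.

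No member passed the test of the difference between the BLA and VTA responses. Here 0 of 82 passed by edgeR (0% of all genes) and 0 by DESeq2 (0.552%). An unadjusted p below 0.05 was reached by 24 members beside 14.9% of all genes, and 22 of them had a lower value in BLA, beside 8.23%. The median difference, BLA minus VTA, was -0.17, beside -0.06 over all genes, a background that upper-quartile factors turned to 0.08 while the members went to -0.03. With those factors 1 member was lower and 4 higher at p below 0.05, beside 11.6% of all genes. Without the 3 libraries of high ribosomal RNA share 1 was lower and 0 higher, beside 8.12%, and without the 2 marker-rich VTA libraries 0 were lower and 2 higher, beside 3.62%. Rpl29 had the smallest p (difference -0.51, SE 0.17, adjusted p = 0.303). Its BLA libraries lay at 55.2, 58.4 and 53.4 CPM isolated and 53.9, 61.7 and 55.0 CPM group-housed, with overlap, in contrast to the VTA values above. Without isolated VTA library 2 it was the 1 member called (-0.66, adjusted p = 0.0251), where 1.9% of all genes were, and without the 2 marker-rich libraries the difference was -0.15 (adjusted p = 1.00).

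Between the regions members passed the test about as often as all genes did, and most of those that passed were lower in BLA. Of 82 members 37 passed, beside 47.7% of all genes, with 33 lower in BLA, beside 24.1%, and 4 higher, beside 23.7%. The median was -0.15, beside -0.02 over all genes. Lower calls came from 17 of 50 large subunit and 16 of 32 small subunit members, and all 4 higher calls came from the large subunit. Without the 2 marker-rich VTA libraries 24 passed, beside 39% of all genes. In 12 members (14.6%) all 6 BLA libraries lay below all 6 VTA libraries, a share near the 14.1% of all genes. In 0 they lay above, beside 12.9%.

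Rps18 had the largest difference between regions of any member, -0.97 (SE 0.18, edgeR adjusted p = 0.00105), with isolated BLA library 3 above the lowest VTA libraries. Rps27l, a variant of Rps27 induced by p53, lay at 5.27 to 6.90 CPM in BLA and 8.09 to 10.99 CPM in VTA (-0.65, SE 0.10, adjusted p = 9.86e-05), without overlap. Rps6 (-0.42), Rps15a (-0.39), Rps4x (-0.35) and Rpl11 (-0.30), the latter a regulator of p53 when free of the ribosome, were also lower in every BLA library than in any VTA library. Rps2 went the other way at 0.33 (SE 0.13, adjusted p = 0.0541), and the groups crossed, since isolated VTA library 3 exceeded isolated BLA libraries 2 and 3. It was 0.18 (adjusted p = 0.485) without the libraries of high ribosomal RNA share and passed without the marker-rich ones (0.53, adjusted p = 0.00312).

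The members that passed and were higher in BLA were few. Rpl29 lay at 53.4 to 61.7 CPM in BLA and 31.5 to 53.5 CPM in VTA (0.56, SE 0.09, edgeR adjusted p = 7.66e-05), and isolated VTA library 3 reached the BLA range. Rpl41, the shortest ribosomal protein, lay at 255 to 283 CPM against 196 to 299 CPM (0.25, adjusted p = 0.00839). Rplp1 (0.27, adjusted p = 0.0317) and Rpl12 (0.18, adjusted p = 0.0388) lay closer to the threshold, and each lost its call when group-housed BLA library 1, among others, was left out (adjusted p = 0.103 and 0.117). Without the 3 libraries of high ribosomal RNA share Rpl41 lost its call (0.17, adjusted p = 0.196), as did Rplp1 and Rpl12 (adjusted p = 0.0681 and 0.137). All 4 had overlapping libraries between the regions.

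Levels can be compared between members only per length, here as CPM per kilobase of the gene's merged exons. On this scale the median member lay at 53.0 and 68 of 82 lay within 3-fold of it. Rplp1 was highest at 515 CPM per kb, followed by Rps15 (302), Rps29 (271), Rpl41 (214), Rpl4 (191), Rpl8 (179), Rpl38 (160), Rpl3 (155), Rpl19 (153) and Rpl36 (150.1). Rplp1, Rps15 and Rps29 held ranks 1, 2 and 3 in each of the 4 groups, while the neighbours Rpl8, Rpl4 and Rpl41 changed places between groups. Rplp1, for one, ranged from 384 to 660 CPM per kb over the 12 libraries, above the whole range of Rps15 (246 to 346). Merged exons count rarely used ends in full, and with the longest transcript as the length, Rps29 rose to rank 2 and Rps15 went to rank 4. The 10 highest also changed. Rpl26 rose from rank 11 to 5 and Rpl37a from 22 to 10, while Rpl38 fell from 7 to 12 and Rpl36 from 10 to 21.

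At the low end stood Rpl3l (0.12 CPM per kb), Rpl36al (0.39), Rpl24 (0.78), Rps10 (0.90) and Rpl32l (1.27). For Rps10 and Rpl24, which encode standard parts of every ribosome, counts at copies exceeded those at the gene. The copies of Rps10 held 90.4% of the summed counts of gene and copies, and those of Rpl24 87.4%. Rpl24 also shares 47.0% of its exon bases with Gm28037 on the same strand, and Rps10 20.6% with RPS10-NUDT3. For Rpl23a the copies held 51.7%. In all, 71 members had at least 1 of 895 such copies, which held over 10% of the summed counts for 20 members and 3.19% for the median member. Exon bases were shared with another gene on the same strand in 28 members and on the opposite strand in 18, so their counts are uncertain to that extent.

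**Figure D5:**
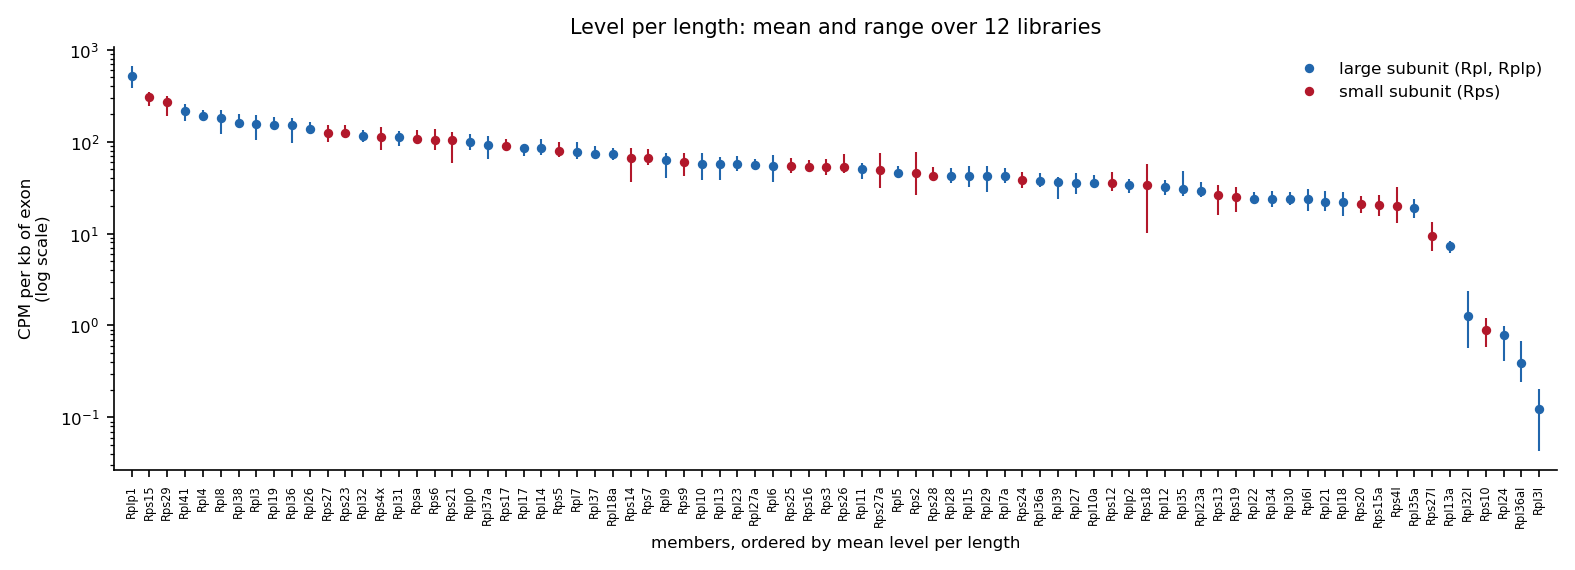
Mean level per length of 80 of the 82 members in CPM per kb of merged exon (points, log axis) with the range over the 12 libraries (lines), ordered from high to low and coloured by subunit. Most members form a slope around the median of 53.0 over all 82, and a step separates the last 5, from Rpl32l at 1.27 to Rpl3l at 0.12.

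Paralogs encoded by separate genes differed widely from the standard form. Rpl3 lay 1255-fold above Rpl3l, the striated muscle form, on the scale per length, with a range of 650 to 3246-fold over the libraries. Rpl36a lay 95.3-fold above Rpl36al (55.2 to 151) and Rps27 13.3-fold above Rps27l (10.7 to 18.1). Rpl32 lay 89.6-fold above Rpl32l, Rps4x 5.61-fold above Rps4l and Rpl6 2.30-fold above Rpl6l, where the second of each pair is annotated as a pseudogene and reads may be split within the pair. Rps4l ran from 12.2 CPM in isolated VTA library 2 to 30.1 CPM in isolated BLA library 3.

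Members varied little within groups. Over the 77 members with a mean of at least 5 CPM, the median coefficient of variation was 5.38% in isolated BLA, 12.2% in group-housed BLA, 8.02% in isolated VTA and 4.46% in group-housed VTA. Rps2 was above these medians in every group, at 18.7%, 14.9%, 25.7% and 7.82%, and so was Rps18, at 10.7%, 33.3%, 25.7% and 12.6%.

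Promoter windows of RefSeq (GRCm38.p6, 250 bases before to 50 after the start) were found for 60 of the 82 members. The letters CTTTCC, a core of the pyrimidine run at the start of many of these messages, were present on the gene's strand in 25 of the 60 (41.7%), beside 16.0% of 27025 genes with a window. On the opposite strand they were present in 16.7% of members and 16.1% of all genes. The longer CTCTTTCC, which contains CTTTCC, was present on the gene's strand in 13.3% beside 1.76%, and on the other in 3.33% beside 1.84%. TATAAA was present on the gene's strand in 10% beside 9.77%, and on the other in 5% beside 7.95%. These matches could lie anywhere in the window. Windows of 30 bases around CTTTCC (capitals) are shown for some members as examples. The letters began 0 bases after the start for Rpl38, 2 for Rpl28, 3 for Rpl18, 1 for Rps27 and 31 for Rpl31, where they are not at the start of the message.
Rpl38, chr11:114668568-114668597, plus strand: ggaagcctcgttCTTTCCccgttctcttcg
Rpl28, chr7:4792955-4792984, plus strand: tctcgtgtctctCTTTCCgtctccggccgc
Rpl31, chr1:39367870-39367899, plus strand: acggctacgcgaCTTTCCctcccacaaacc
Rpl18, chr7:45718062-45718091, plus strand: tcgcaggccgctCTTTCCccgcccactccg
Rps27, chr3:90213630-90213659, minus strand: ccgctttcgctcCTTTCCggcggtgacgac
The median log2 fold change in VTA was 0.20 over the 25 members with CTTTCC on the gene's strand and 0.17 over the 35 without it, and in BLA 0.07 and 0.08.

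Other genes of translation were given beside the members from lists of their own. In VTA 7 of 7 ribosomal genes outside the name rule were higher (median 0.17), among them Rack1 (0.21), Rps3a1 (0.21) and Fau (0.17). Of 9 elongation factors 8 were higher (median 0.20), with Eef1a2, the neuronal form, at 0.39 (SE 0.09). Of 36 initiation factors and other genes with a pyrimidine start 32 were higher (median 0.16), with Eif3f at 0.45 and Pabpc1, the poly(A)-binding protein, at 0.49. Of 77 mitochondrial ribosomal proteins, which belong to a separate ribosome, 71 were higher (median 0.17). Of all genes 49.8% were higher. Lists for making ribosomes or sensing nutrients stood nearer the background, at 0.04 for 40 assembly factors, 0.02 for 18 mTOR pathway genes and 0.02 for 14 RNA polymerase I genes. No gene of these lists passed the edgeR test in VTA, where the count of adjusted calls was 0. Higher at an unadjusted p below 0.05 were 3 of the ribosomal genes outside the name rule, 4 elongation factors, 15 of the initiation list and 25 mitochondrial ribosomal proteins. The same count was 4 for assembly factors, 5 for mTOR pathway genes and 3 for RNA polymerase I genes, with 1 mTOR pathway gene lower, beside 8.73% of all genes higher at that p. Without the 2 marker-rich libraries the medians were 0.099 for the ribosomal genes outside the rule, 0.14 for elongation factors, 0.068 for the initiation list, 0.075 for mitochondrial ribosomal proteins, 0.012 for assembly factors, 0.021 for the mTOR pathway and 0.0063 for RNA polymerase I. Eef1a2 was then at 0.26, Eif3f at 0.32, Pabpc1 at 0.31, Rack1 at 0.099, Rps3a1 at 0.11 and Fau at 0.087.

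In BLA these lists lay near 0, with medians of 0.05 for the ribosomal genes outside the rule, 0.00 for elongation factors, -0.03 for initiation factors, -0.02 for mitochondrial ribosomal proteins, -0.04 for assembly factors, -0.02 for the mTOR pathway and -0.01 for RNA polymerase I. No gene of them passed the test in BLA or for the difference. Between regions the initiation factors moved in both directions, with 12 of 36 higher in BLA and 4 lower, and the mTOR pathway had 9 of 18 higher and 1 lower, where 23.7% of all genes were higher and 24.1% lower, beside 4 higher and 33 lower among the 82 members. Eef1a2 was higher in BLA (0.56, adjusted p = 5.7e-05, edgeR) and Eef1g, a subunit of the factor that reloads eEF1A, was lower (-0.37, adjusted p = 8.7e-05).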

How the data were processed

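The deposited values are raw counts of reads per gene. The mm10 build and the tools cutadapt, TopHat2 and HTSeq, without versions, are named in the submitters' processing notes. The annotation and the strand setting used are not stated there. The labels' protocols name Trizol extraction and a stranded total RNA kit with removal of ribosomal RNA. Groups and replicate numbers come from sample titles, sex from the design text.

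The quasi-likelihood test of edgeR 4.0.16 (R 4.3.3) was run on all genes that filterByExpr kept (count of 10, total of 15), with TMM factors, per region on 6 libraries and on 12 for the difference and for BLA against VTA, with Benjamini-Hochberg adjustment and a threshold of 0.05. The scripts were tested on simulated counts. Printed levels are CPM with TMM factors over 12 libraries. Means of log2 values used an offset of 0.5 CPM. Gene positions, exon lengths and copies come from GENCODE M21 (GRCm38), matched with blastn 2.17.0. All 82 members had 1 annotation entry. The series table and the per-library tables disagreed at 2 entries, 0 of them members.

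Members, gene lists and tests were chosen with earlier results of these data known, and Rps2 and Rps18 were singled out for that reason. Named are these 2, members that passed, otherwise up to 10 per direction by smallest p, the 10 highest and 5 lowest per length, paralogs and stalk genes, and up to 4 genes of each other list. Not all of them are described. Members shown for a single library (Rps14, Rpl35, Rps26) and Rps6, Rps27a and Rpl10a were chosen after their values were seen. Alternatives were DESeq2 1.42.0, limma 3.58.1 voom, other factors and filters, a replicate block and leaving out each library. Adding copies, and leaving out libraries rich in ribosomal RNA reads or markers of other tissue, were chosen after seeing the data. Figures used matplotlib 3.10.9. Some genes are not reported here by name and are left out of the plots that label each member, but stay in all fits and counts.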

Additional observations from a re-analysis of the deposited data

How the results depend on the processing

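Counts of members called changed as follows. DESeq2 called 2 members in BLA and 1 in VTA where edgeR called 0, beside 0.0271% and 2.02% of all genes by DESeq2. Without the low-count filter edgeR called 1 in BLA (Rps2), beside 0.0219%. Leaving out each library in turn gave 0 to 7 calls in VTA and 0 to 1 for the difference of the responses. The highest in each case came without isolated VTA library 2, beside 4.81% and 1.9% of all genes. BLA against VTA gave the fewest calls, 26, without group-housed VTA library 2, where 10908 of 25914 genes were called. It gave the most, 39, without group-housed BLA library 1, where 11256 of 26178 genes were called. Without the 2 isolated VTA libraries rich in markers of other tissue, BLA against VTA gave 24 calls and the median over members in VTA fell to 0.095; Rps18 in VTA turned to -0.26 and Rplp2 to 0.013. Rplp2 was at 0.035 in a single fit of 12 libraries. The difference of the responses for Rps2 turned to 0.059 with upper-quartile factors, 0.21 with the 3 BLA libraries of high ribosomal RNA share left out and 0.30 without the 2 marker-rich libraries, and ran from -0.26 to 0.12 over single libraries left out. The share of Rps2 in member counts rose to 0.929% in group-housed BLA and 0.634% in group-housed VTA with -ps copies added, and to 0.966% and 0.673% with all near-identical copies. The causes of these shifts were not tested, other than that fewer libraries or added counts entered. With the replicate number as a replicate block, 0 members were called in BLA, VTA and the difference, beside 0%, 0% and 0.004% of all genes. BLA against VTA then gave 30, beside 45.7%. In VTA 21 members had an unadjusted p below 0.05 with the block, beside 15.7% of all genes, and 42 without it, beside 18.3%. Deviations of same-numbered libraries from their group means had correlations of 0.43, -0.12 and -0.00 in BLA and -0.11, 0.03 and -0.05 in VTA. The value of 0.43 was the highest of any pair, and a differently numbered BLA pair reached 0.32. These few values cannot decide whether same-numbered libraries share more than a number. Of 800 values under alternatives, 735 were counted as unchanged. Single genes had to keep direction and side of the threshold, and counts of calls had to equal the main count or lie within a set ratio of it. Other values had to stay within a spread, which was 0.078 in BLA and 0.084 in VTA for the member medians. By that rule the BLA median of 0.0011 without group-housed library 2 counted as unchanged. With 3 libraries a group, depth limits low members such as Rpl3l most.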
